A study of Mus musculus with 32 samples.

Results

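The aminoacyl-tRNA synthetases are the enzymes that load each transfer RNA with its amino acid, and they were taken here as the rows whose mouse gene symbol has the form of an amino acid letter followed by ars, with or without a final 2, together with Eprs, Farsa, Farsb and Fars2. This rule found 37 genes of the 25284 gene symbols in the 4 count tables. Of these, 20 encode cytosolic enzymes and 17, whose symbols end in 2, encode mitochondrial enzymes. All 37 passed the filter on low counts in the leukaemia table, the adult marrow table and the f-PRDM16 knockout table. In the fetal liver table of the total knockout, Lars2 had no row and the other 36 passed.

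The series profiled mRNA from mouse leukaemia cells carrying the MLL-AF9 fusion, sorted from moribund mice, and from haematopoietic stem cells (HSCs) sorted as Lin-cKit+Sca1+CD48-, in 32 libraries of 10 groups. The leukaemia cells were of 4 kinds with 3 libraries each. WT+EV cells were wild type for PRDM16 and KO+EV cells were knockout, where EV is written as the labels have it. The add-back cells, KO+f and KO+s, were knockout cells that overexpressed f-PRDM16 and s-PRDM16, respectively. PRDM16 is a transcriptional regulator made in a full-length form with a PR domain and a short form without it. The HSC groups were wild type and PRDM16 knockout cells from adult marrow (4 libraries each), wild type and total PRDM16 knockout cells from fetal liver (3 each), and wild type and f-PRDM16 knockout cells that express s-PRDM16 only, also from fetal liver (3 each). The labels mark the marrow and total knockout groups, wild type included, with VAV, and the f-PRDM16 groups as 47bpWT and 47bpKO, so the 2 fetal knockouts carry different allele labels, which are not explained there. No age, vector or number of mice per library is given, and no Cre driver is spelled out. They call the replicates independent without naming their source, so each p-value here rests on the spread among these libraries, which may be technical. RNA of the HSC libraries was amplified with a low-input kit, and no test was made between leukaemia cells and HSCs.

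Each synthetase joins an amino acid to its tRNA in an ATP-dependent reaction, and the charged tRNA is what the ribosome uses. Cytosolic and mitochondrial translation use mostly separate enzymes encoded in the nucleus. Gars and Kars serve both compartments from a single gene, and Eprs joins the glutamyl and prolyl enzymes in a single protein. Several cytosolic enzymes sit in the multisynthetase complex on the scaffold proteins encoded by Aimp1, Aimp2 and Eef1e1. Uncharged tRNA activates the kinase GCN2, and the stress-induced factor ATF4 then raises transcription of amino acid transporters, amino acid synthesis enzymes such as asparagine synthetase (Asns), and many cytosolic synthetases. ATF4 binds with C/EBP partners to a composite DNA element, while MYC and related factors bind the E-box.

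The start-site regions of the synthetases were therefore searched on both strands for the core of that composite element, TGATGCAA, and for the E-box, CACGTG. RefSeq windows on GRCm38.p6, from 250 bases before to 50 after the start, were matched for 26 of the 37 synthetases. The core occurred in 4 of the 12 cytosolic genes with a window and in 0 of the 14 mitochondrial ones, against 0.895% of all 32851 windows. The E-box occurred in 5 of the 26 genes, 4 of the 12 cytosolic and 1 of the 14 mitochondrial ones, against 7.15% of all windows. The 4 windows that hold the core are shown because they hold it. All 4 genes were lower after s-PRDM16 add-back, as were 15 of the 20 cytosolic synthetases. The runs go from 150 bases before to 30 after the start, 5′ to 3′ along the gene. Capitals mark the 2 searched motifs, which do not overlap. A match is a string of letters and not a measured binding site.
Aars (chr8:111033692-111033871, plus strand): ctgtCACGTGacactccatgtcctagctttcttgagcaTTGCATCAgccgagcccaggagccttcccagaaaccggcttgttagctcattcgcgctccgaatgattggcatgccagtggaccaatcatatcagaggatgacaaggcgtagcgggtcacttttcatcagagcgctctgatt
Iars (chr13:49681980-49682159, plus strand): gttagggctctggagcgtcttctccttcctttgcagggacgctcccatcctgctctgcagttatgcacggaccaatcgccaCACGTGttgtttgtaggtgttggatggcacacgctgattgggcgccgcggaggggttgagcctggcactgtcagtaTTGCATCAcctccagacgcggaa
Tars (chr15:11399629-11399808, minus strand): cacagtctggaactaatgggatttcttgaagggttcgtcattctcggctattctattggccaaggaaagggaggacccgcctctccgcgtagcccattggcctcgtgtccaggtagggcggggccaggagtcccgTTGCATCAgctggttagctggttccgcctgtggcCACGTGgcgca
Yars (chr4:129189753-129189932, plus strand): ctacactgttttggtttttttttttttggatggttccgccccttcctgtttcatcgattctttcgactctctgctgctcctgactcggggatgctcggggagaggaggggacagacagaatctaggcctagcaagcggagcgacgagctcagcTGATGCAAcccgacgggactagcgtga
In Aars the core starts at base 39 of the printed run, 112 bases before the start. In Tars it starts at base 136, and in Iars and Yars at bases 158 and 154, just past the start. Aars, Iars and Tars also carry an E-box in the printed run, and Yars does not.

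Levels are given as CPM, a gene's counts divided by all gene counts of its library and multiplied by 1000000. Library totals were 16353584 to 23785307 counts in the leukaemia table and 22490805 to 44952448 in the HSC tables. Prdm16 itself was 0.733 ± 0.305 CPM (mean ± SD, n = 3) in WT+EV, 0.048 ± 0.0476 in KO+EV, 273 ± 53.5 in KO+f and 235 ± 58.0 in KO+s. In fetal liver it was 34.5 ± 7.80 in wild type and 19.8 ± 7.78 in total knockout HSCs, and 23.0 ± 10.9 and 7.82 ± 1.81 in the f-PRDM16 experiment. In adult marrow it was 31.0 ± 18.7 in wild type libraries and 30.1 ± 13.5 in those labelled knockout (n = 4 each), so Prdm16 counts did not separate the 2 marrow groups. The leukaemia libraries all held Hoxa9, Hoxa10, Meis1, Kit and Ptprc, and every HSC library group held all 7 HSC markers. The granulocyte markers summed to 13000 to 54400 CPM in KO+EV, and the highest library, KO+EV replicate 3, held Mpo at 31240 CPM against 4036 and 3399 in the other two.

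Summed over the 20 cytosolic genes, synthetase mRNA was 3435 to 3572 CPM in WT+EV, 3481 to 3826 in KO+EV, 2774 to 2995 in KO+f and 2243 to 2591 in KO+s. In plain CPM neither add-back group overlapped the KO+EV libraries, and the KO+s libraries all lay below the KO+f libraries. These sums leave out edgeR's TMM scaling factors, which were 0.9361 to 0.9566 in KO+s and 1.013 to 1.035 in KO+f. Divided by these factors, the KO+s and KO+f sums would overlap. KO+s replicate 2 (2591 CPM, factor 0.9566) would then lie above KO+f replicate 3 (2774 CPM, factor 1.032). The difference between these 2 groups was not tested. The 16 mitochondrial genes other than Lars2 summed to 632.2 to 653.4 CPM in WT+EV, 602.3 to 670.6 in KO+EV, 508.9 to 643.3 in KO+f and 490.8 to 555.9 in KO+s. Here KO+f overlapped KO+EV and KO+s did not. In HSCs the cytosolic sum ran from 3189 to 4110 CPM in adult marrow, from 3428 to 4584 in the total knockout experiment and from 4950 to 6873 in the f-PRDM16 experiment, and the 2 genotypes overlapped in each. These sums are plain CPM without a test, and in bulk RNA fewer cells of a type and less RNA per cell cannot be told apart.

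**Figure D1:**
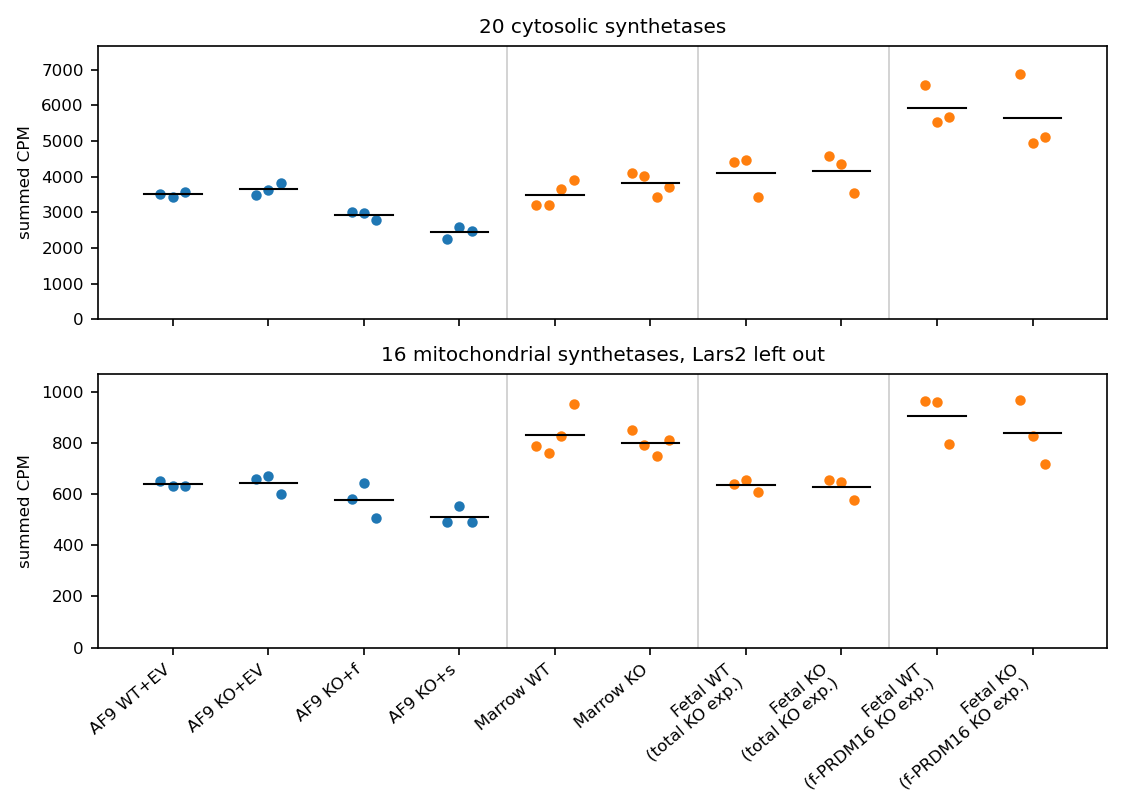
Summed CPM of the 20 cytosolic synthetases (upper panel) and of 16 mitochondrial synthetases without Lars2 (lower panel) in each of the 32 libraries, by group. Points are libraries, horizontal bars are group means, and vertical lines separate the 4 tables; the cytosolic sum is lowest in the KO+s leukaemia libraries, at 2243 to 2591 CPM.

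Per kilobase of the annotated principal transcript, cytosolic synthetases lay above mitochondrial ones. In KO+EV cells the median level was 50.1 CPM per kilobase over the 20 cytosolic genes and 12.2 over the 17 mitochondrial genes. Dars, for aspartate, was highest at 133 CPM per kilobase, followed by Nars, for asparagine, at 127. Cars, for cysteine, was lowest of the cytosolic genes at 20.2. Lars2, for mitochondrial leucine, stood at 113 between Nars and Kars, while the other 16 mitochondrial genes reached at most 31.5, the level of Tars2. In wild type marrow HSCs Lars2 stood at 270 CPM per kilobase and Vars, for valine, at 182, but without library 2, the one richest in Lars2, they stood at 167 and 184.

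Lars2 stood apart from the other members in its spread between replicates. It was 1090, 1036 and 557.8 CPM in the WT+EV libraries and 432.6, 251.4 and 633.1 in KO+EV. The KO+f libraries held 479.8, 813.8 and 673.1 CPM and the KO+s libraries 412.4, 666.2 and 532.8. In wild type marrow it ran from 501.9 to 2238 CPM. No comparison called Lars2, and its WT+EV and KO+EV libraries overlapped.

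Loss of PRDM16 in the leukaemia cells (KO+EV against WT+EV) moved no synthetase past the threshold, an adjusted p under 0.05 from edgeR's quasi-likelihood test with Benjamini-Hochberg adjustment over all genes. The same test called 2.10% of the 12958 genes tested. Of the 37 synthetases, 5 had an unadjusted p under 0.05, beside 18.1% of all genes, and DESeq2 called 2, beside 6.12%. The median log2 change was 0.09 over the cytosolic genes, -0.01 over the mitochondrial genes and 0.00217 over all genes. The smallest p belonged to Wars, for tryptophan, with 72.9, 78.6 and 122.8 CPM in KO+EV and 54.5, 67.0 and 55.2 in WT+EV. Its groups did not overlap, with KO+EV higher, as in 10.7% of all genes. KO+EV replicate 3 stood well above the other two, and the log2 change of 0.68 ± 0.21 (SE) did not pass (adjusted p = 0.114). Pars2, for mitochondrial proline, followed with 0.57 ± 0.18 (adjusted p = 0.129), and Lars2 with -0.98 ± 0.36 (adjusted p = 0.181). Outside the synthetases, 2 of 20 proliferation genes rose, Plk1 (0.78 ± 0.15) and Ube2c (0.59 ± 0.14), as did Irgm1 (0.73 ± 0.13) of 16 interferon genes. Of 9 granulocyte markers 3 fell, among them S100a9 (-2.72 ± 0.45) and Ngp (-2.50 ± 0.50), and Ctsg rose (1.03 ± 0.22).

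Add-back of f-PRDM16 (KO+f against KO+EV) lowered 5 of the 37 synthetases and raised 0. All 5 were cytosolic. The background was 11.3% of all genes called, 4.39% lower and 6.88% higher. The median log2 change was -0.42 over the 20 cytosolic genes and -0.25 over the 17 mitochondrial genes, against -0.01 over all genes. In 14 of the 20 cytosolic genes every KO+f library lay below every KO+EV library in plain CPM. So did 15.8% of all genes tested, while 18.2% lay above.

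Nars had the smallest p of the 5. Its level was 226.8, 228.9 and 218.3 CPM in KO+f against 349.9, 341.1 and 351.5 in KO+EV. All KO+f libraries were low and close together, with a log2 change of -0.66 ± 0.11 (edgeR adjusted p = 0.00597). Cars fell from 60.9, 58.3 and 76.3 CPM to 43.5, 39.9 and 39.3, a log2 change of -0.71 ± 0.16 (adjusted p = 0.019). The groups of Cars did not overlap. Mars, for methionine, fell by 0.51 ± 0.14 on the log2 scale, from 141 ± 13.6 to 102 ± 14.7 CPM (adjusted p = 0.0373). Tars, for threonine, fell by 0.48 ± 0.13 (0.0399), and its libraries held 140.2, 143.7 and 159.1 CPM in KO+EV and 116.7, 109.0 and 99.2 in KO+f. Gars, for glycine in both compartments, fell by 0.54 ± 0.16 (0.0469). Its KO+EV libraries held 163, 179.4 and 213.4 CPM and its KO+f libraries 136.3, 113.0 and 143.5. The count of 5 rested on single libraries: it was 1 without KO+EV replicate 3, 1 without KO+f replicate 2, 2 without KO+EV replicate 2, and 3 without KO+f replicate 1 or 3. It was also 1 when only the 2 groups were fitted and 3 without the filter on low counts. DESeq2 called 8, beside 16.1% of all genes. For the refits other than DESeq2, the share of all genes called is not reported here. Nars passed in each of the 13 alternatives run.

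Add-back of s-PRDM16 (KO+s against KO+EV) lowered 18 of the 37 synthetases and raised 0. The 18 were 15 of the 20 cytosolic and 3 of the 17 mitochondrial genes, beside 32.4% of all genes called, 16.6% lower and 15.9% higher. The median log2 change was -0.61 over the cytosolic genes and -0.26 over the mitochondrial genes, against -0.01 over all genes. In plain CPM, every KO+s library lay below every KO+EV library in 19 of the 20 cytosolic and 9 of the 17 mitochondrial genes. So did 30.2% of all genes tested, while 20.9% lay above. The 19 include Sars, whose log2 change with TMM scaling was -0.05. Without KO+s replicate 1 the count was 11, and without KO+EV replicate 3, the library rich in granulocyte markers, it was 14. The shares of all genes called in these refits are not reported here. Both add-back comparisons share the KO+EV libraries and so are not independent of each other.

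Cars changed most, from 60.9, 58.3 and 76.3 CPM in KO+EV to 31.0, 28.5 and 29.0 in KO+s. The 3 KO+s libraries were nearly equal and far below, with a log2 change of -1.07 ± 0.16 (edgeR adjusted p = 0.000915). Nars held 176.5, 196.8 and 174.5 CPM in KO+s against 349.9, 341.1 and 351.5, a log2 change of -0.84 ± 0.11 (adjusted p = 0.000484). Its groups lay far apart. Aars, for alanine, held 119.1, 112.3 and 112.2 CPM against 199.9, 221.9 and 224.6 (-0.83 ± 0.14, adjusted p = 0.00148). In KO+f the Aars libraries had spread from 134 to 199.9 CPM, and the highest of them nearly met the lowest KO+EV library.

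Yars, for tyrosine, held 39.9, 49.8 and 43.6 CPM in KO+s and 68.5, 73.9 and 99.3 in KO+EV (-0.79 ± 0.17, adjusted p = 0.00496). Gars, at 96.7, 114.7 and 107.4 CPM, fell by 0.72 ± 0.16 on the log2 scale (adjusted p = 0.00521). Mars, at 75.3, 86.7 and 83.8 CPM, fell by 0.70 ± 0.14 (adjusted p = 0.00336). These genes serve tyrosine, glycine and methionine, and none of the 3 overlapped with KO+EV. Hars, for histidine, fell from 99.4 ± 6.60 to 58.2 ± 7.71 CPM (-0.69 ± 0.13, adjusted p = 0.00238). Hars shares 195 exonic bases on the opposite strand with Hars2, its mitochondrial neighbour. In all, 13 of the 37 synthetases share exonic bases with another annotated gene, among them Aars with Exosc6 (1326 bases, same strand) and Iars2 with Rab3gap2 (2034 bases, opposite strand). Cars and Yars share 211 and 30 bases on the opposite strand. Which gene received such reads is uncertain, as the strand used in counting is not given in the sources used here. Tars fell to 78.6, 87.7 and 97.5 CPM (-0.66 ± 0.13, adjusted p = 0.00366). Kars, for lysine in both compartments, fell from 225 ± 12.3 to 137 ± 13.9 CPM (-0.63 ± 0.12, adjusted p = 0.00255). Iars, for isoleucine, fell from 176 ± 4.29 to 110 ± 23.6 CPM (-0.59 ± 0.16, adjusted p = 0.0153), and its KO+s libraries spread from 95.9 to 137.6.

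Wars fell to 52.39, 61.74 and 49.99 CPM in KO+s, from 72.9, 78.6 and 122.8 in KO+EV (-0.67 ± 0.21, adjusted p = 0.0284). That value depended on the reference, because against WT+EV the log2 change of Wars was 0.00323. The proline enzyme Pars2 was the lowest of the 3 mitochondrial genes that passed. It held 7.11, 7.63 and 7.19 CPM in KO+s and 13.5, 11.7 and 13.2 in KO+EV (-0.72 ± 0.18, adjusted p = 0.0109). Against WT+EV it was -0.16 and did not pass. The other genes that passed, with smaller changes, were Rars, Iars2, Lars, Tars2, Vars and Eprs, between -0.49 and -0.42. Nars, Cars, Aars, Hars, Kars, Mars, Tars, Yars, Gars and Tars2 passed in each of the 13 alternatives run, and the other 8 lost the call in at least 1.

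Against WT+EV in place of KO+EV, 5 synthetases were lower in KO+f (9.97% of all genes called) and 14 in KO+s (23.7%), and 0 were higher. Those lower in KO+f were Nars, Cars, Yars, Tars and Dars, of which Nars, Cars and Tars were also among the 5 against KO+EV. In KO+s, 13 of the 14 were among the 18 against KO+EV. The exception was Qars, at -0.33 ± 0.09 (edgeR adjusted p = 0.0271). Cars stood at -1.12 ± 0.16 and Nars at -0.75 ± 0.11 in KO+s, close to their changes against KO+EV.

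**Figure D2:**
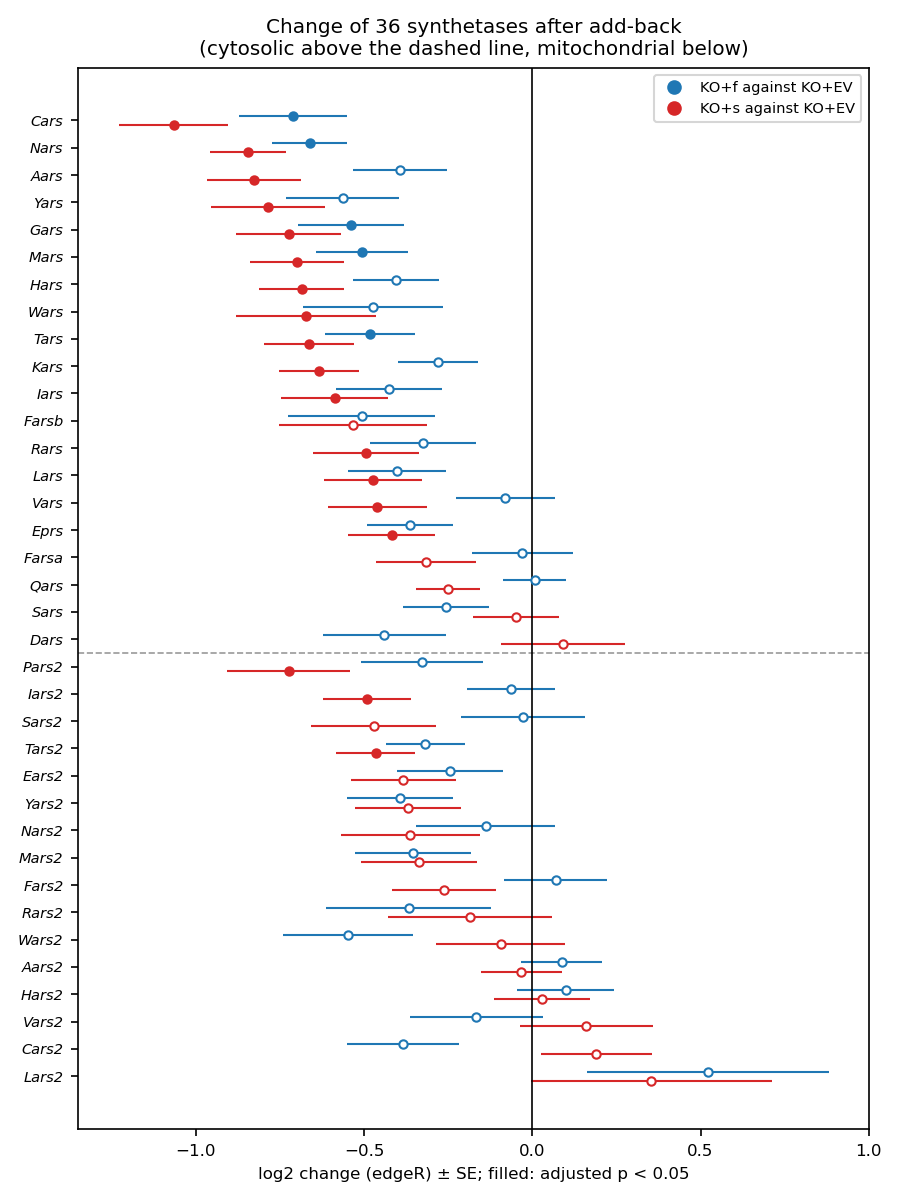
Log2 change ± SE (edgeR) of 36 of the 37 synthetases after add-back of f-PRDM16 (blue) or s-PRDM16 (red) to knockout leukaemia cells, against the same KO+EV libraries. Filled points have an adjusted p under 0.05; 5 genes are filled for KO+f and 18 for KO+s, and all of these lie left of 0.

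The 5 cytosolic genes that did not pass in KO+s were Dars, Sars, Qars, Farsa and Farsb. Dars held 233.2, 274.8 and 367.9 CPM in KO+s and 278.5, 280.1 and 312.6 in KO+EV, so its KO+s libraries lay on both sides of the reference (0.09 ± 0.18, adjusted p = 0.737). Sars, for serine, held 102.3, 106.1 and 104.3 CPM against 111.8, 107.9 and 122.8 (-0.05 ± 0.13, adjusted p = 0.799). Farsa and Farsb, the 2 subunits of the phenylalanine enzyme, had log2 changes of -0.32 ± 0.15 and -0.53 ± 0.22 (adjusted p = 0.124 and 0.0816), and Qars, for glutamine, -0.25 ± 0.09 (0.0619).

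**Figure D3:**
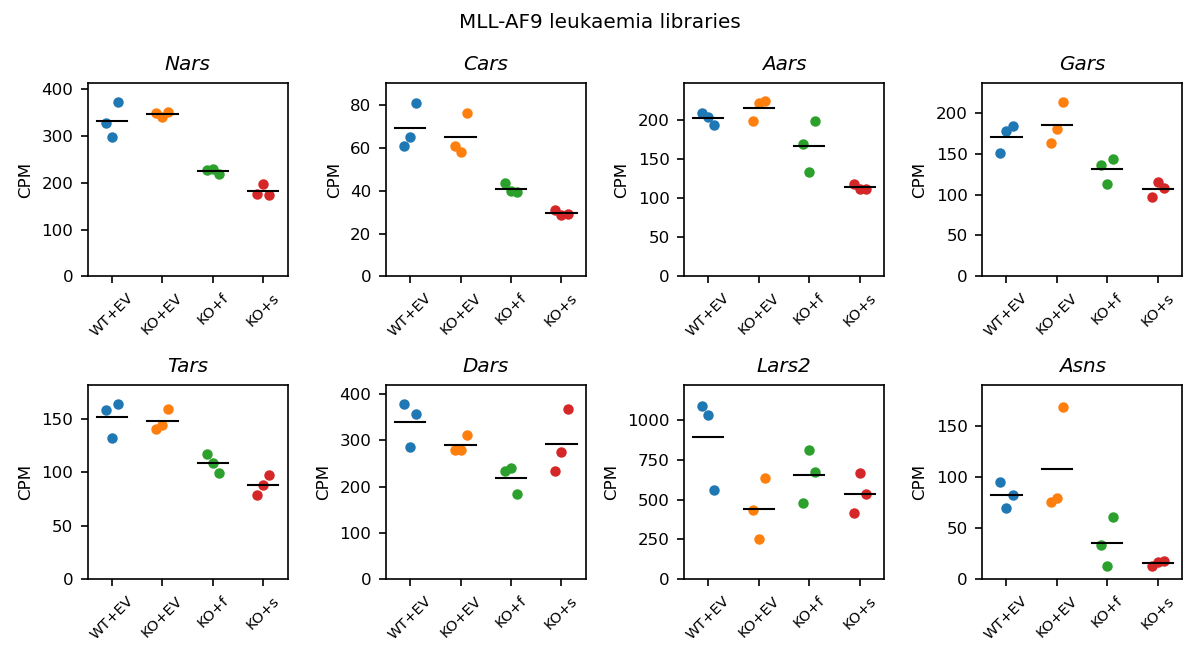
CPM of 7 synthetases and of Asns in the 12 leukaemia libraries, by group, on linear axes from 0. Points are libraries and bars are group means; the KO+s libraries of Nars lie at 174.5 to 196.8 CPM, below all WT+EV and KO+EV libraries, while those of Dars and Lars2 overlap both.

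Between the isoforms themselves (KO+s against KO+f) 0 of the 37 synthetases passed, beside 3.81% of all genes. Of the 37, 11 had an unadjusted p under 0.05, beside 22.5% of all genes, and DESeq2 called 2, beside 10.3%. The median log2 change was -0.19 over the cytosolic and -0.12 over the mitochondrial genes, against -0.02 over all genes. Cars2, for mitochondrial cysteine, had the smallest p, at 50.8, 51.0 and 46.7 CPM in KO+s against 36.2, 42.4 and 29.5 in KO+f. Its groups did not overlap, with a log2 change of 0.57 ± 0.17 (edgeR adjusted p = 0.0715). Iars2 followed with -0.43 ± 0.13 (0.0831) and Aars with -0.43 ± 0.14 (0.0947). On the log2 scale of edgeR, maturation markers rose in KO+s against KO+f for 4 of 9 granulocyte genes, S100a9 (3.46 ± 0.46), S100a8 (3.35 ± 0.54), Ltf (3.87 ± 0.84) and Ngp (2.45 ± 0.50), and for 2 of 7 monocyte genes, Lyz2 (2.49 ± 0.34) and Itgam (1.17 ± 0.15). Other genes of the lists that passed between isoforms included the mitotic kinase Aurkb (-0.67 ± 0.16), lower in KO+s, and Mxi1 (0.62 ± 0.13), higher.

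By structure and complex, the cytosolic genes lowered in KO+s included 9 of the 10 class I enzymes and 6 of the 10 class II enzymes. These classes differ in the fold of the catalytic domain. Beside the counts given here, 16.6% of all genes tested were lower in KO+s and 4.39% in KO+f. Eprs, which joins a class I glutamyl and a class II prolyl enzyme, was counted as class I. The 8 enzymes of the multisynthetase complex included 6 that fell, and the other 12 cytosolic enzymes 9. Medians were -0.48 and -0.68, and the difference was not tested. In KO+f, 1 of the 8 complex members and 4 of the other 12 fell, and most of these calls rested on single libraries. Both genes that serve 2 compartments, Gars and Kars, fell in KO+s, and of them Gars fell in KO+f.

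Cytosolic and mitochondrial enzymes for the same amino acid were set side by side in 17 pairs, with Eprs paired to both Ears2 and Pars2 and Farsa to Fars2. In KO+s the cytosolic log2 change was the lower in 14 of the 17 pairs, and in KO+f also in 14 of 17. The widest gap in KO+s was that of Cars and Cars2, at -1.07 and 0.19. Aars and Aars2 stood at -0.83 and -0.03, and Hars and Hars2 at -0.69 and 0.03. The exceptions in KO+s included serine (Sars -0.05, Sars2 -0.47) and proline (Eprs -0.42, Pars2 -0.72). The cytosolic change was the lower in 7 of 17 pairs in KO+EV against WT+EV and in 9 of 17 in KO+s against KO+f. In HSCs it was the lower in 0 of 17 pairs in marrow, with Eprs at 0.48 and Ears2 at -0.25, in 4 of 16 in the total fetal knockout and in 5 of 17 in the f-PRDM16 knockout.

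**Figure D4:**
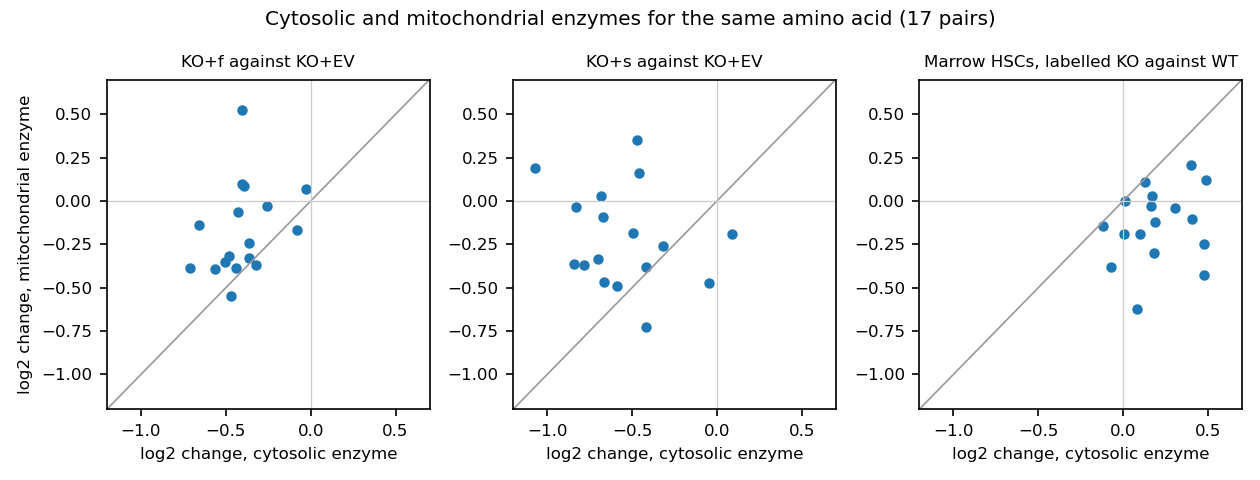
Log2 change of the cytosolic (x axis) and mitochondrial (y axis) enzyme for the same amino acid, 17 pairs a panel, in KO+f and KO+s leukaemia cells against KO+EV and in marrow HSCs labelled knockout against wild type. The grey diagonal is equal change; 14 of 17 points lie above it in each add-back panel, and 0 of 17 in the marrow panel.

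Other genes of tRNA charging followed in part, beside 4.39% of all genes lower in KO+f and 16.6% in KO+s. Aimp2, a scaffold of the multisynthetase complex, fell in both add-back groups, by 0.45 ± 0.13 in KO+f and 0.57 ± 0.13 in KO+s on the log2 scale (edgeR adjusted p = 0.0451 and 0.00664). It was the sole member of the 3 scaffolds to pass. Pet112l, a subunit of the amidotransferase that makes mitochondrial glutaminyl-tRNA, fell by 0.79 ± 0.18 and 0.96 ± 0.18 (0.017 and 0.00221), and was the sole one to pass of the 4 tested genes of amidotransferase and formylation. Among 5 tested synthetase-like and tRNA editing genes, 3 fell in KO+s and 0 passed in KO+f. They were Dtd1, which removes D-amino acids from tRNA (-0.84 ± 0.13), Aarsd1, an alanyl editing protein (-0.55 ± 0.13), and Tarsl2, a threonyl-tRNA synthetase-like protein (-0.38 ± 0.12).

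Part of the genes of tRNA supply were lowered. The background was 16.6% of all genes lower and 15.9% higher in KO+s, and 4.39% and 6.88% in KO+f. Of 24 tRNA maturation genes, 8 fell and 0 rose in KO+s (median -0.51), and 0 passed in KO+f. The smallest p values belonged to Rpp40 and Pop5, subunits of RNase P, at -1.12 ± 0.20 and -1.04 ± 0.23, and to Elac2, which cuts the 3′ trailer, at -0.62 ± 0.13. Of 19 genes for tRNA transcription by RNA polymerase III, 5 fell in KO+s, including Gtf3c1 (-0.55 ± 0.13) and Gtf3c3 (-0.42 ± 0.12), and 1 rose. The riser was Maf1, the repressor of RNA polymerase III, at 0.43 ± 0.14 in KO+s (adjusted p = 0.0322), named after its value was seen. Maf1 was also the sole gene of the list to pass in KO+f, at 0.57 ± 0.14 (adjusted p = 0.0232).

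Some translation factors passed, beside 32.4% of all genes called in KO+s and 11.3% in KO+f. Of 7 cytosolic elongation genes, Eef1d fell (-0.35 ± 0.10) and Eef2k, the kinase that inhibits elongation factor 2, rose (0.63 ± 0.20) in KO+s, and 0 passed in KO+f. Of 9 mitochondrial factors, Gfm1 (-0.79 ± 0.12) and Tsfm (-1.01 ± 0.15) fell in KO+s and Gfm1 (-0.45 ± 0.12) and Gfm2 (-0.61 ± 0.14) in KO+f. All 4 changes concern elongation or recycling of the mitochondrial ribosome.

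The ATF4 list moved in both directions in KO+s. Of 27 tested genes, 10 fell and 5 rose, with a median of -0.24, beside 16.6% and 15.9% of all genes. Asns held 75.9 to 169 CPM in KO+EV and 12.7 to 17.2 in KO+s, a clear separation, with a log2 change of -2.75 ± 0.51 (edgeR adjusted p = 0.0027). Shmt2, a mitochondrial serine hydroxymethyltransferase, fell by 1.63 ± 0.15, the transporter Slc1a4 by 3.46 ± 0.45 at a mean of 0.279 CPM, and the leucine transporter subunit Slc7a5 by 1.42 ± 0.23. Atf4 mRNA itself rose from 299 ± 38.2 to 422 ± 25.9 CPM (0.58 ± 0.18, adjusted p = 0.0323), and Ddit3, a stress-induced C/EBP family gene, from a range of 8.61 to 14.1 CPM to one of 16.6 to 35.1 (1.30 ± 0.37, adjusted p = 0.0212). The other genes of the list that rose, named after their values were seen, were Slc38a2, Sesn2 and Slc3a2. Against WT+EV, with Atf4 at 468 ± 120 CPM, the Atf4 change in KO+s was -0.04 and did not pass, while that of Asns was -2.30 ± 0.50 (adjusted p = 0.00828).

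In KO+f, 3 of the 27 genes fell and 0 rose, beside 4.39% and 6.88% of all genes, and the 3 were Shmt2 (-0.64 ± 0.15), Mthfd2 (-0.90 ± 0.22) and Atf5 (-0.98 ± 0.26). Asns held 12.99 to 60.69 CPM in KO+f. Its libraries lay below those of KO+EV, but the change of -1.65 ± 0.48 missed the threshold (adjusted p = 0.0505). Atf4 was 0.21 ± 0.18 and Ddit3 0.55 ± 0.37 (adjusted p = 0.467 and 0.354). Between isoforms Shmt2 (-0.99 ± 0.15) and Slc1a4 (-2.29 ± 0.45) passed, lower in KO+s, and Asns did not (-1.10 ± 0.49, adjusted p = 0.21). KO+EV against WT+EV passed 0 of the 27, with Asns at 0.45 ± 0.47, Atf4 at -0.62 ± 0.18 and Ddit3 at -0.97 ± 0.37.

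Among 13 tested genes for the eIF2 kinases, phosphatase and the eIF2B exchange factor, 5 fell and 1 rose in KO+s. For this list and the next 2, the background was 16.6% of all genes lower and 15.9% higher in KO+s. In KO+f it was 4.39% and 6.88%. Eif2b1 (-0.62 ± 0.11) and Eif2b2 (-0.75 ± 0.16), subunits of eIF2B, had the smallest p values of those that fell. Ppp1r15a, the stress-induced phosphatase subunit, was the riser, from 7.85 to 28.4 CPM in KO+EV to 84.5 to 156.5 CPM in KO+s (2.63 ± 0.58, adjusted p = 0.00651). In the MYC and growth list, 5 of 15 fell and 3 rose in KO+s, led by the MYC antagonist Mxi1 (1.14 ± 0.13), the pyrimidine synthesis gene Cad (-1.15 ± 0.20) and nucleolin, Ncl (-0.61 ± 0.15). In KO+f, Mxi1 rose (0.51 ± 0.13) and Cad fell (-0.68 ± 0.20). Interferon genes, included because Wars is interferon-inducible, split 4 up and 2 down of 16 in KO+s, with Gbp3 at -2.07 ± 0.21, Irf9 at 0.71 ± 0.14 and Irf1 at 0.95 ± 0.23. In KO+f, Gbp3 (-1.33 ± 0.20) and Rsad2 (-2.19 ± 0.55) fell and Irf1 (0.98 ± 0.23) rose.

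Markers of proliferation and maturation were set beside these changes, with 16.6% of all genes lower and 15.9% higher in KO+s as background. In KO+f the background was 4.39% and 6.88%. Of 20 proliferation genes, 18 fell in KO+s and 4 in KO+f, and 0 rose in either, with Aurkb (-1.13 ± 0.16), Plk1 (-1.06 ± 0.15) and Ube2c (-0.87 ± 0.14) lowest in p in KO+s and Plk1, Rrm2 and Mcm3 in KO+f. Their summed level was 6950 to 7520 CPM in KO+EV, 4830 to 5850 in KO+f and 4190 to 4730 in KO+s. Of 7 monocyte and macrophage markers, 6 rose in KO+s and 4 in KO+f, and the sum was 840 to 1060 CPM in KO+EV, 1030 to 1540 in KO+f and 2540 to 3830 in KO+s. Of 9 granulocyte markers, 5 rose and 1 fell in KO+s and 0 passed in KO+f. Their sums were 13000 to 54400 CPM in KO+EV, 12600 to 17700 in KO+f and 23700 to 26200 in KO+s. The KO+s sums thus lay within the KO+EV range. The 5 megakaryocyte markers summed to 4.53 to 7.46 CPM in WT+EV, 2.16 to 4.38 in KO+EV, 12.8 to 17.3 in KO+f and 12.8 to 19.7 in KO+s, so both add-back groups lay above KO+EV. Of the 3 that were tested, Itga2b rose in KO+f (3.31 ± 0.59), and Gp9 (4.61 ± 0.85) and Itga2b (1.67 ± 0.58) rose in KO+s. Erythroid, B cell and T cell markers each summed to at most 7.54 CPM in any leukaemia library, with Hba-a1 and Hbb-b1 at 0. None of the proliferation, monocyte or granulocyte markers was at 0 in any leukaemia group, and the part of these lists in the synthetase changes was not tested.

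**Figure D5:**
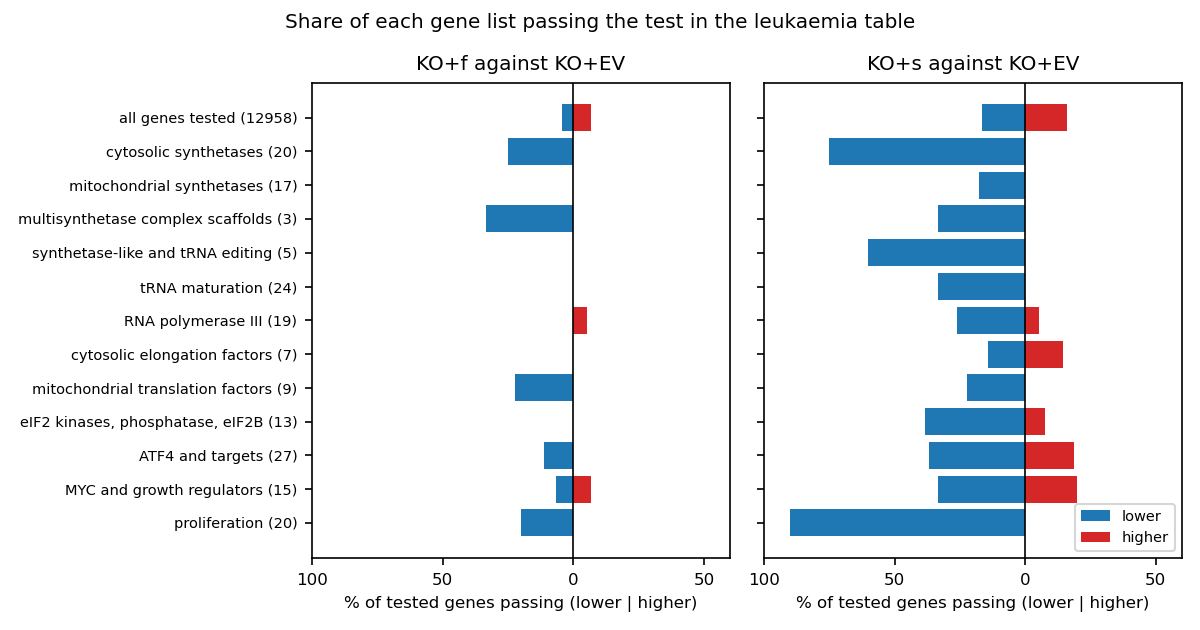
Percent of the tested genes of each list that passed the edgeR test, lower (blue, to the left) or higher (red, to the right), in KO+f and KO+s against KO+EV; the number of tested genes stands in brackets. The cytosolic synthetases reach 75% lower in KO+s and 25% in KO+f, the proliferation list 90% and 20%, and all genes tested 16.6% and 4.39%.

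In HSCs no synthetase passed in any of the 3 knockout comparisons, and neither did any other gene tested by edgeR (0% called). The genes not called include Prdm16 itself, even at means of 23.0 and 7.82 CPM in the f-PRDM16 experiment. The absence of calls therefore does not show that the synthetases were unchanged. In adult marrow, 3 of the 37 had an unadjusted p under 0.05 (8.45% of all genes), and DESeq2 called 1, Tars (0.491% of all genes). The median log2 change was 0.13 over the cytosolic genes, with 16 of 20 above 0, and -0.12 over the mitochondrial genes, with 12 of 17 below 0, against -0.03 over all genes. Tars held 142.9, 127.5, 121.5 and 133.3 CPM in the libraries labelled knockout and 101.1, 86.0, 87.5 and 99.0 in wild type. The groups did not overlap, at 0.49 ± 0.13 (edgeR adjusted p = 0.514). Eprs held 331.1, 299.1, 247.3 and 298.2 CPM against 233.9, 187.5, 218.6 and 205.2, also without overlap (0.48 ± 0.14, adjusted p = 0.514). Such separation upward was found in 2 of the 37 synthetases and in 3.07% of all genes. Dars held 324.2, 290.8, 263.3 and 303.2 CPM in libraries labelled knockout, and the top wild type library, at 264.3, overlapped them (0.40 ± 0.14, adjusted p = 0.532).

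The ratio of summed cytosolic to summed mitochondrial synthetase CPM, Lars2 left out, was 4.04 to 4.42 in wild type marrow and 4.56 to 5.07 in the libraries labelled knockout. These ranges did not overlap, and no test was made of the ratio. Genotypes overlapped in the total fetal knockout (wild type 5.61 to 6.87, knockout 6.1 to 6.97). They also overlapped in the f-PRDM16 experiment (5.75 to 7.11 and 5.97 to 7.13). In leukaemia cells KO+EV (5.28 to 6.35) overlapped WT+EV (5.39 to 5.65) and KO+f (4.65 to 5.45), and KO+s (4.55 to 5.06) lay below KO+EV. Atf4 held 241 to 365 CPM in wild type marrow and 164 to 184 in the labelled knockouts (-0.77 ± 0.16, adjusted p = 0.478), and Ddit3 37.4 to 51.4 and 26.1 to 32.5 (-0.70 ± 0.17, adjusted p = 0.478). Neither pair of groups overlapped, and DESeq2 called both genes. The 9 granulocyte markers summed to 557 to 715 CPM in wild type marrow and 363 to 1620 in the labelled knockouts. Asns overlapped, at 23.6 to 52.0 and 33.1 to 63.7 CPM (0.28 ± 0.30, adjusted p = 0.778).

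In fetal liver HSCs of the total knockout, the cytosolic median was 0.07, the mitochondrial median 0.02 and that of all genes -0.00062. The 3 smallest p values, all unadjusted p over 0.05, belonged to Rars, for arginine (0.24 ± 0.12), Qars (0.15 ± 0.10) and Dars (0.15 ± 0.11), each with an adjusted p of 1. Unadjusted, 4.74% of all genes had a p under 0.05, and DESeq2 called 0.501% of all genes and 0 synthetases. Libraries varied together by replicate number: Iars was 299.0, 285.0 and 145.0 CPM in wild type and 290.5, 245.2 and 154.5 in knockout libraries 1 to 3. Library 3 of each genotype was thus low. With the replicate number as a block, 1.13% of all genes and 0 synthetases passed. Rars was higher in knockout in each of the 3 same-numbered pairs, at 132.9 and 152.3, 139.2 and 162.1, and 114.8 and 131.3 CPM, and stood at 0.24 ± 0.06 with the block (adjusted p = 0.12). Asns, Atf4 and Ddit3 stood at -0.03 ± 0.42, 0.24 ± 0.11 and 0.18 ± 0.28 without the block. Granulocyte markers ran from 162 to 1780 CPM in wild type and 719 to 13100 in knockout libraries, although the cells were sorted as HSCs, and their part in these values was not tested.

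In fetal liver HSCs lacking f-PRDM16, the cytosolic median was 0.00655 and the mitochondrial median -0.05. Dars had the smallest p (0.23 ± 0.15), followed by Wars2, for mitochondrial tryptophan (-0.48 ± 0.32), and Lars2 (0.15 ± 0.11), each with an adjusted p of 0.999. None of the 37 had an unadjusted p under 0.05 (2.62% of all genes), and DESeq2 called 0 (0.0223% of all genes). These fits had no block, and with the replicate number as a block 0 synthetases and 0% of all genes passed. Lars2 was even in this table, at 154.9, 145.4 and 158.4 CPM in wild type and 163.8, 166.2 and 149.9 in knockout libraries. Asns, Atf4 and Ddit3 stood at 0.14 ± 0.40, 0.13 ± 0.35 and 0.15 ± 0.22. Granulocyte markers summed to 3390 to 21100 CPM in wild type and 7590 to 46800 in knockout libraries of this table.

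The difference between the 2 fetal liver knockout effects was called for 0 of the 36 synthetases shared by the tables, and 0 had an unadjusted p under 0.05 (1.30% of all genes). The difference between the marrow and total fetal knockout effects was also called for 0 of 36, with Tars the sole synthetase under an unadjusted p of 0.05 (7.30% of all genes; adjusted p = 0.677). Over all 16211 genes tested for these differences, 0 (0%) and 2 (0.0123%) were called, and with the replicate numbers as blocks 0 synthetases and 0 genes were called for either.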

How the data were processed

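Messenger RNA was profiled in 32 libraries, and the authors deposited raw read counts per gene in 4 tables, without p-values or fold changes. Per the submitters' processing notes, bcl2fastq 2.17, TopHat and DESeq were used with the mm9 build, while the counter, its annotation and its strand setting are not given in the sources used here. Per the labels' protocols, RNA was extracted with Trizol and libraries were made with a poly-A TruSeq kit, with SMARTer low-input amplification for the HSCs.

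Spike-in rows (92 each in the adult marrow and f-PRDM16 knockout tables) were left out. CPM are plain shares of each library's gene counts. Log2 changes come from edgeR 4.0.16 in R 4.3.3, with filterByExpr, TMM scaling, a robust quasi-likelihood fit per table and two-sided tests, adjusted over all genes at 0.05. The SE is the log2 change divided by the root of F. The 4 leukaemia groups share a fit. Where the text speaks of genes not overlapping, all libraries of a group lie beyond all of the other in plain CPM, without TMM factors. DESeq2 1.42.0, other scalings, no filter, a replicate block, single comparisons and each replicate left out were run as alternatives. WT+EV as the reference and scaling by library size were added after the data were seen. The test was also run on simulated counts with changes larger than most synthetase changes here, and the outcome of that run is not reported.

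The main fits had no block for the replicate number, in fetal liver as elsewhere, and a block was run as an alternative. The numbers of the fetal liver samples were treated there as possible pairs, although no label names what a number shares. Same-numbered deviations from the group means correlated at 0.415, 0.202 and 0.626 (total knockout) and 0.624, 0.351 and 0.519 (f-PRDM16 knockout). In every table the libraries differed by more than counting noise.

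The synthetases, gene lists and markers were chosen with earlier results of these data known. Named are all synthetases that passed, up to 12 a direction; where under 3 passed, the 3 with the smallest p; those with an outlying library in a group of 4; up to 3 passing genes a list and comparison; and Prdm16, Asns, Atf4 and Ddit3. A few genes that this rule takes are not reported here. Transcript lengths and exon overlaps come from GENCODE M21 (GRCm38), whose gene coordinates are not printed, since the counts rest on mm9.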

Additional observations from a re-analysis of the deposited data

Results flagged for a closer look

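Each of the 74 groups of 4 marrow libraries, 37 synthetases in 2 genotypes, was checked for a library far from the others, by the gap to its nearest neighbour as a share of the group's range, against Dixon's critical value. Chance alone passes about 1 group in 20, and 4 passed. Aars2, for mitochondrial alanine, was 53.3 CPM in wild type library 4, and the other three held 31.7 to 35.1. It was 19.4 CPM in library 3 labelled knockout, and the others held 36.8 to 39.7. Farsa was 165 CPM in wild type library 1, against 204 to 211 in the others. Iars was 89.4 CPM in wild type library 2, against 159 to 165, and that library also held the highest Lars2 of its group, 2238 CPM. None of these 3 genes passed in the marrow comparison.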

How the results depend on the processing

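The count in KO+s against KO+EV stayed between 11 and 17 when each replicate was left out, lowest without KO+s replicate 1, and was 24 when scaled by library size, which moved the median of all genes by -0.10 and was chosen after the data were seen. In KO+f against KO+EV it was 3 without the filter, 8 with DESeq2, 1 when the 2 groups were fitted alone and 1 to 6 with a replicate left out. In KO+s against KO+f it was 2 by library size, 2 with DESeq2 and 0 to 1 with a replicate left out. DESeq2 called 2 in KO+EV against WT+EV and 1 in marrow. The causes were not tested. Shares of all genes called are not reported here for library-size scaling, no filter, the 2 groups alone or left-out replicates. With the replicate block, 4 synthetases passed in KO+f (11.1% of all genes), 18 in KO+s (32.2%) and 0 in each other comparison. Leukaemia and marrow numbers were not taken as pairs, because correlations ran from -0.182 to 0.289 and from -0.0317 to 0.203. With WT+EV as the reference, 5 passed in KO+f (3 of them among the 5 against KO+EV) and 14 in KO+s (13 among the 18).

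Direction changed in these values. With WT+EV as the reference, Atf4 was -0.40 and Ddit3 -0.42 in KO+f, and Wars was 0.00323 and Atf4 -0.04 in KO+s. With the block, Prdm16 was 0.06 in marrow and Asns 0.0314 in the total fetal knockout. With each replicate left out, Asns in KO+EV against WT+EV ran from -0.101 (without KO+EV replicate 3) to 0.672, and Prdm16 in KO+s against KO+f from -0.314 to 0.0791, above 0 without KO+f replicate 1 or KO+s replicate 3. Prdm16 in marrow ran from -0.323 to 0.347, above 0 without wild type 1 or 3 or knockout 2 or 4. In the total fetal knockout, Asns ran from -0.365 to 0.217, above 0 without wild type 1 or 2 or knockout 3, and Ddit3 from -0.197 (without knockout 3) to 0.356. In the f-PRDM16 knockout, Asns ran from -0.160 to 0.623 and Atf4 from -0.148 to 0.375, both below 0 without wild type 2 or knockout 3. Every synthetase with counts in a table passed its filter on low counts, so the filter removed none of them.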
